A study of Mus musculus with 10 samples.

Results

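Binding of p65 (RelA), a DNA-binding subunit of NF-kB, was examined at the genes for the proteins of the cytosolic and the mitochondrial ribosome. Members were the protein-coding mouse genes whose symbols begin with Rpl or Rps and a digit (without the Rps6k kinases), with Rpsa, and those that begin with Mrpl or Mrps and a digit. This gave 166 of 21887 protein-coding genes, 88 in the cytosolic and 78 in the mitochondrial set. The rule works on symbols. It takes in Rps19bp1, an Rps19-binding protein, and paralogs such as Rpl22l1 and Rps27l, and it leaves out Rplp0 and Fau. The cytosolic set also holds genes with derived symbols, Rpl31-ps12, Rpl34-ps1, Rpl32l, Rpl37rt, Rps27rt and Rps23rg1. None of these had an entry in any list, and they count in the cytosolic shares. A peak belonged to a member when its summit lay inside the gene, or within 50 kb with that gene body as the nearest one. Non-coding genes were not considered in the assignment.

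The libraries came from chromatin immunoprecipitation with an antibody against p65 (ChIP-seq) in C57BL/6 mouse cells from spleens and lymph nodes. The 4 groups were Tconv, the conventional T cells, and Treg, the regulatory subset that restrains immune responses. Each was unstimulated or cultured for 3 h with plate-bound anti-CD3, which triggers the T cell receptor complex, and soluble anti-CD28, which triggers a co-receptor. Stimulated Tconv cultures held IL-2 at 2 ng/ml and stimulated Treg cultures at 10 ng/ml. The sources used here do not say how unstimulated cells were kept, so stimulation and IL-2 cannot be told apart within a cell type, nor cell type and IL-2 dose between the stimulated groups. Genotype, age, sorting markers and the number of animals pooled are likewise not given there.

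Each group had 2 libraries, and the authors' peak lists hold 1 list per group made from both. No spread between replicates can therefore be given and no test across samples was possible. The 95% intervals below are Wilson intervals over genes or list entries, which are not replicates, and cover counting error only. The lists hold 3132 entries in unstimulated Tconv, 6480 in stimulated Tconv, 3442 in unstimulated Treg and 13078 in stimulated Treg. They end at different lowest −log10 p values of 13.3, 38.1, 15.1 and 26.6 in that order, and library depth is unknown. The fold enrichment of an entry is the authors' value from the peak caller and was used to describe or rank entries within a list. As a look at the Treg label, Foxp3, the lineage factor of Treg, had 2 entries in stimulated Treg and 0 in the other lists, and peak lists hold no RNA level.

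Cytosolic ribosomes translate nuclear messenger RNAs, and the supply of their proteins rises when T cells grow before division. Mitochondrial ribosomes translate the few proteins encoded by mitochondrial DNA, all subunits of oxidative phosphorylation, and their own proteins are nuclear-encoded and imported. NF-kB is held in the cytoplasm by IkB proteins and enters the nucleus after signals from the T cell receptor and CD28. Ribosomal protein promoters are active in nearly all cells and are known for factors such as ETS-family proteins, SP1 and YY1, and NRF1 is a known factor of nuclear genes for mitochondrial proteins.

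The upstream 250 bases of 5 genes with p65 at their start in every list are shown here because they differ in the motifs they hold. They come from RefSeq (GRCm38.p6, with mm10 coordinates), run 5′ to 3′ on the gene's strand and end at the base before the start. Capitals mark GGANNTTCC on either strand in Rpsa (chr9:120127516-120127765, plus strand), Rps12 (chr10:23787210-23787459, minus strand) and Mrpl39 (chr16:84735245-84735494, minus strand), and GCGCATGC on either strand in Mrpl32 (chr13:14613038-14613287, minus strand). Mrpl45 (chr11:97315466-97315715, plus strand) held none of the 6 motifs searched.
Rpsa: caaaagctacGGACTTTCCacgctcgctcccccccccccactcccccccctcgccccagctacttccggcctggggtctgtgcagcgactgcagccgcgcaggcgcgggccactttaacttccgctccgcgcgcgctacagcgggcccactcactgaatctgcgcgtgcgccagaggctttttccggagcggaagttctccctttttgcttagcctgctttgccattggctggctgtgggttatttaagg
Rps12: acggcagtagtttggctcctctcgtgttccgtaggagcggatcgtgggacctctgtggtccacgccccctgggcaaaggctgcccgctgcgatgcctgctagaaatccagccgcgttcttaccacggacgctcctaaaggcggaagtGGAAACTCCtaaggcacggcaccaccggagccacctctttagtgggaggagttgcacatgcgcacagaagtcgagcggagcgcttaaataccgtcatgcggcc
Mrpl39: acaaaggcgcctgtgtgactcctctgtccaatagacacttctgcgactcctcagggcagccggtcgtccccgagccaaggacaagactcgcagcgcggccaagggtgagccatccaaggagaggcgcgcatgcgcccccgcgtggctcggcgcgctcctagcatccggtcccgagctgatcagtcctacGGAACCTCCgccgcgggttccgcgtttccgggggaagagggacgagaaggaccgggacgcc
Mrpl32: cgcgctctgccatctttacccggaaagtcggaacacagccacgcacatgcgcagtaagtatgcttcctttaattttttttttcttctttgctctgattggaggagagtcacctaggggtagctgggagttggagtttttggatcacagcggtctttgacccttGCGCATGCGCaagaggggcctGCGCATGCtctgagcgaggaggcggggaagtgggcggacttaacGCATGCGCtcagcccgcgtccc
Mrpl45: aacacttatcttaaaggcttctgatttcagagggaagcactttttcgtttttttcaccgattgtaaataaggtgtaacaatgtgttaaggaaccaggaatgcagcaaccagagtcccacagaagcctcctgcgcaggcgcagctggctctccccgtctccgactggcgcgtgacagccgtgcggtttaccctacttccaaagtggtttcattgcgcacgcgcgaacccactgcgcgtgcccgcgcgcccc

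The cytosolic and the mitochondrial set had p65 entries at similar shares of their genes in every list. Counting entries anywhere within the limits of the rule, 19 of 88 cytosolic genes had one in unstimulated Tconv (21.6%), 18 in stimulated Tconv (20.5%), 18 in unstimulated Treg (20.5%) and 30 in stimulated Treg (34.1%). Of the 78 mitochondrial genes, 15 (19.2%), 19 (24.4%), 15 (19.2%) and 28 (35.9%) had one in the same order. Over all protein-coding genes the shares were 12.6%, 16.6%, 13.5% and 25.4%. In at least 1 list, 38 cytosolic and 33 mitochondrial genes had an entry (background 29.1%), so 50 and 45 members had none.

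A gene-end entry is one whose summit lay within 1 kb of either end of the nearest gene body. In unstimulated Tconv, 16 cytosolic genes (18.2%, 11.5% to 27.5%) and 14 mitochondrial genes (17.9%, 11.0% to 27.9%) had one, beside 9.75% of all genes. In stimulated Tconv there were 15 (17.0%, 10.6% to 26.2%) and 16 (20.5%, 13.0% to 30.8%), beside 10.3%. In unstimulated Treg there were 14 (15.9%, 9.72% to 25.0%) and 14 (17.9%, 11.0% to 27.9%), beside 10.3%. The shares were highest in stimulated Treg, the longest list, with 25 cytosolic (28.4%, 20.0% to 38.6%) and 23 mitochondrial genes (29.5%, 20.5% to 40.4%), where the share over all genes was also highest at 16.8%. With the full lists, the intervals lay above the all-gene share in each case apart from the cytosolic set in unstimulated Treg, but for several of them this was lost when the lists were shortened. The all-gene share includes genes that T cells do not transcribe, and its part in this gap was not tested.

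The mitochondrial minus the cytosolic share of genes with a gene-end entry was −0.23 percentage points in unstimulated Tconv (95% Newcombe interval −11.9 to 11.7) and 3.47 in stimulated Tconv (−8.38 to 15.6). It was 2.04 in unstimulated Treg (−9.36 to 13.8) and 1.08 in stimulated Treg (−12.5 to 14.8). Every interval contained 0, and its width leaves differences of over 10 points in either direction undetected in 2 of the lists. In at least 1 list, 32 cytosolic and 27 mitochondrial genes had a gene-end entry (background 20.1%).

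**Figure D1:**
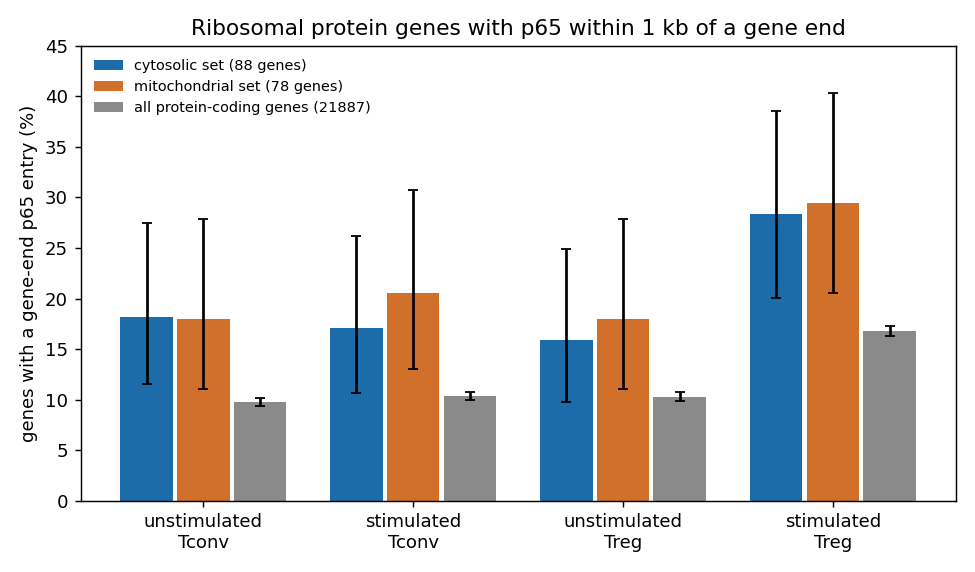
Share of genes with a p65 entry within 1 kb of a gene end (vertical axis, %) in the 4 peak lists, for the cytosolic set, the mitochondrial set and all protein-coding genes, with 95% Wilson intervals over genes. The paired colored bars overlap in every list and run from 15.9% to 29.5%, above the gray bars at 9.75% to 16.8%.

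The higher counts in stimulated Treg depended on how the lists were cut. When each list was reduced to its 3132 entries with the highest −log10 p, the length of the shortest list, the stimulated Treg list kept gene-end entries at 4 cytosolic and 4 mitochondrial genes, beside 2.69% of all genes. The stimulated Tconv list then kept 5 and 9 (all genes 4.51%), and the unstimulated Treg list 13 and 14 (all genes 9.53%). At this length the intervals contained the all-gene share for the cytosolic set in stimulated Tconv (5.68%, 2.45% to 12.6%), unstimulated Treg (14.8%, 8.84% to 23.7%) and stimulated Treg (4.55%, 1.78% to 11.1%), and for the mitochondrial set in stimulated Treg (5.13%, 2.01% to 12.5%). They lay above it for both sets in unstimulated Tconv, whose list is not shortened, and for the mitochondrial set in stimulated Tconv (11.5%, 6.19% to 20.5%) and unstimulated Treg (17.9%). With the upper 50% of each list, the intervals contained it for both sets in stimulated Treg (9.09% and 11.5%, beside 7.32%) and for the cytosolic set in stimulated Tconv (5.68%, beside 4.72%). With 1 −log10 p cut-off for all lists, they contained it for the cytosolic set in unstimulated Treg (9.09%, beside 5.11%) and stimulated Treg (17.0%, beside 11.9%). At that cut-off stimulated Treg kept gene-end entries at 15 cytosolic and 15 mitochondrial genes, and stimulated Tconv at 15 and 16. Each unstimulated list kept 8 and 9 (all genes 4.59% in Tconv and 5.11% in Treg). The order of the groups thus depended on whether the lists were cut to a length or at a −log10 p value, for the members as for all genes.

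Member entries stayed near gene ends in the stimulated lists, where most other entries did not. The share of member entries at gene ends was 83.3% in unstimulated Tconv (30 of 36), 72.1% in stimulated Tconv (31 of 43), 80.0% in unstimulated Treg (28 of 35) and 70.0% in stimulated Treg (49 of 70). Among the remaining entries within 50 kb of a gene the shares were 72.6%, 40.3%, 70.7% and 35.0%. The difference was 31.8 points in stimulated Tconv (Newcombe interval 17.0 to 43.0) and 35.0 in stimulated Treg (23.4 to 44.5). It was 10.7 in unstimulated Tconv (−4.58 to 19.7) and 9.33 in unstimulated Treg (−6.64 to 19.4), intervals that contain 0. Member genes are short, with a median of 3.17 kb in the cytosolic and 7.69 kb in the mitochondrial set beside 17.2 kb for all genes, and the part of length in the shares was not tested.

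Overlapping member entries of the 4 lists formed 82 sites, 59 at gene ends (32 cytosolic, 27 mitochondrial) and 23 elsewhere (12 and 11). An entry without a counterpart is one that no entry of the other list overlapped by at least 1 bp. In stimulated Tconv, 8 of 31 gene-end entries lacked a counterpart in unstimulated Tconv (25.8%, 13.7% to 43.2%), beside 38.9% over the whole list. Of the 12 other entries, 9 lacked one (75.0%, 46.8% to 91.1%), beside 82.6%. The difference between other and gene-end entries was 49.2 points (Newcombe interval 16.0 to 69.3).

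In stimulated Treg, 27 of 49 gene-end entries lacked a counterpart in unstimulated Treg (55.1%, 41.3% to 68.1%), beside 50.2%, and 17 of 21 other entries did (81.0%, 60.0% to 92.3%), beside 86.7%. The difference was 25.9 points (1.17 to 43.7). The same direction held over the whole lists, and no member interval lay apart from the whole-list share in Treg. The whole-list share in Tconv likewise fell within the members' interval at gene ends and elsewhere.

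By set, every mitochondrial entry away from gene ends was absent from the unstimulated list of its cell type, 6 of 6 in stimulated Tconv and 11 of 11 in stimulated Treg. The intervals of 61.0% to 100% and 74.1% to 100% contained the shares over all such entries of the lists, 82.6% and 86.7%. These entries are not independent, since several lie near Mrpl39, in stimulated Treg with 2 summits in a single region. Those of Mrpl24 and Mrpl48 lay 5 bp and 419 to 470 bp from starts listed inside the gene body. For the cytosolic set these counts were 3 of 6 and 6 of 10. At gene ends, 16 of 25 cytosolic and 11 of 24 mitochondrial entries of stimulated Treg lacked an unstimulated counterpart, shares of 64.0% (44.5% to 79.8%) and 45.8% (27.9% to 64.9%) with overlapping intervals.

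Between the stimulated groups, no difference between gene-end and other member entries was resolved. Of the gene-end entries of stimulated Treg, 20 of 49 had no counterpart in stimulated Tconv (40.8%, 28.2% to 54.8%), beside 37.1% over the list. Of the other entries, 8 of 21 had none (38.1%, 20.8% to 59.1%), beside 48.6%. The difference was −2.72 points (−25.0 to 21.8), an interval too wide to show that the shares are equal. Both shares moved under some of the settings that shorten the lists. In the reverse direction, 3 of the 43 stimulated Tconv member entries were absent from stimulated Treg (6.98%, 2.40% to 18.6%), at Rpl41, Rpl10 and Mrps24, beside 240 of 6480 over the list (3.70%).

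**Figure D2:**
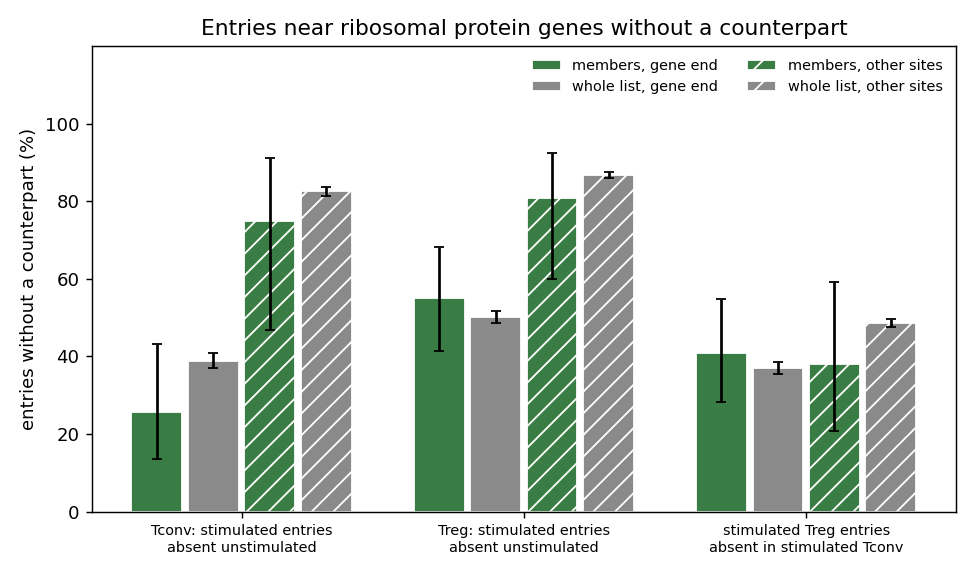
Percent of entries without an overlapping entry in the list compared (vertical axis), for member entries (green) and the whole list (gray) at gene ends (plain) and elsewhere (hatched), with 95% Wilson intervals over entries. In both comparisons of stimulated with unstimulated cells the hatched bars stand above the plain ones, 75.0% against 25.8% for Tconv members and 81.0% against 55.1% for Treg members. In the comparison of stimulated Treg with stimulated Tconv the member bars stand at 38.1% (hatched) and 40.8% (plain), with wide overlapping intervals.

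Gene-end entries in all 4 lists were found at 9 mitochondrial and 7 cytosolic members (11.5% and 7.95% of each set, background 5.23%). The mitochondrial genes were Mrpl9, Mrpl17, Mrpl32, Mrpl36, Mrpl39, Mrpl45, Mrpl54, Mrps26 and Mrps33. The cytosolic genes were Rpl14, Rpl27, Rps10, Rps12, Rps19, Rps23 and Rpsa. At 3 more mitochondrial sites, those of Mrpl10, Mrpl14 and Mrps6, each list held an overlapping entry, but in some lists the summit lay nearer to the neighbouring gene (Lrrc46, Tmem63b and Slc5a3).

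Mrpl45, whose product tethers the mitochondrial ribosome to the inner membrane, had the highest member fold in any list. Its start-site entry (chr11:97315134-97316157, mm10) had a fold enrichment of 43.8 in unstimulated Tconv, 32.0 in stimulated Tconv, 47.0 in unstimulated Treg and 38.2 in stimulated Treg. It ranked 57 of 3132, 373 of 6480, 47 of 3442 and 726 of 13078 by −log10 p, high in all 4 lists. A further site inside the gene, 7.16 kb from its nearer end, was present in stimulated Treg alone with a fold of 19.4.

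Mrpl32, a large-subunit protein matured by a protease of the inner membrane, shares its start region with Psma2, which encodes a proteasome subunit. The entry there (chr13:14612737-14613895) had folds of 39.4 in unstimulated Tconv, 23.4 in stimulated Tconv, 35.9 in unstimulated Treg and 17.4 in stimulated Treg. Its rank was 9 and 12 in the unstimulated lists of Tconv and Treg, against 183 and 1379 in the stimulated ones. Mrpl54, near Apba3, likewise had its higher folds in the unstimulated lists, 25.1 and 25.4 in Tconv and Treg, beside 11.7 and 9.21 in the stimulated lists.

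Mrpl36 showed the opposite arrangement of values. Its entry (chr13:73328038-73329053), at the 5′ edge of the gene body and within 1 kb of Ndufs6, a gene for a subunit of respiratory complex I, had folds of 9.48 in unstimulated and 30.6 in stimulated Tconv, and 10.2 in unstimulated and 45.6 in stimulated Treg. It ranked 955, 279, 796 and 291 in the lists of unstimulated Tconv, stimulated Tconv, unstimulated Treg and stimulated Treg. Folds of different lists were not tested against each other, and the stimulated lists' entries had higher median folds as a whole (12.6 and 11.2 beside 8.31 and 8.13).

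Mrpl17 and Mrpl9, both large-subunit genes, had folds of 14.6 and 13.1 in stimulated Tconv and 12.8 and 14.0 in stimulated Treg, with 15.5 and 15.8 in unstimulated Tconv and 17.4 and 16.9 in unstimulated Treg. Mrps26 and Mrps33, of the small subunit, ranged from 10.5 to 12.4 and from 7.11 to 10.0. Each of these 4 genes kept folds of a similar size, but their ranks by −log10 p differed between the lists. Mrps26 ranked 1005 of 3132 in unstimulated Tconv, 5218 of 6480 in stimulated Tconv, 996 of 3442 in unstimulated Treg and 7993 of 13078 in stimulated Treg. Mrpl17 ranked 687, 2750, 555 and 5826 in the same order.

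Among the cytosolic genes, Rpsa, a small-subunit protein also known as the laminin receptor precursor, had the highest gene-end folds and nearly the same value in each list. Its entry (chr9:120127009-120128366) had folds of 24.6 in unstimulated Tconv, 25.2 in stimulated Tconv, 25.6 in unstimulated Treg and 26.1 in stimulated Treg. Rps12 (chr10:23786821-23787976) had 19.1, 22.0, 18.1 and 23.5 in the same order of lists. Both belong to the promoters shown above with GGANNTTCC.

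Rps10, a small-subunit gene mutated in Diamond-Blackfan anaemia, had higher folds in the unstimulated lists, 21.9 in Tconv and 21.6 in Treg, than in the stimulated lists, 9.82 and 11.9. Rps19, the gene most often mutated in that disease, had lower values in the unstimulated lists, 7.31 in Tconv and 7.33 in Treg, beside 17.1 and 13.6 after stimulation. Thus 2 genes of the same subunit, bound in all lists, stood in opposite order. Rpl27 had folds of 5.35 in unstimulated and 11.0 in stimulated Tconv, and 5.31 in unstimulated and 12.5 in stimulated Treg. Rps23 had 6.59 and 11.8 in Tconv, and the closer values of 7.58 and 8.94 in Treg. Folds of different lists were not tested against each other, and the stimulated lists end at higher −log10 p values. The unstimulated Rpl27 entries had a −log10 p of 14.1 in Tconv and 15.1 in Treg. Entries of that strength would not have been listed in the stimulated lists, which end at 38.1 and 26.6.

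Rpl14, of the large subunit, had entries in all lists at its start (17.2 in unstimulated Tconv, 12.9 in stimulated Tconv, 21.4 in unstimulated Treg and 8.72 in stimulated Treg) and at a site 2.57 kb beyond its body (17.6, 15.7, 22.7 and 8.95). The third Rpl14 site, 8.46 kb outside, was in the unstimulated lists alone, with 10.6 in Tconv and 6.25 in Treg.

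**Figure D3:**
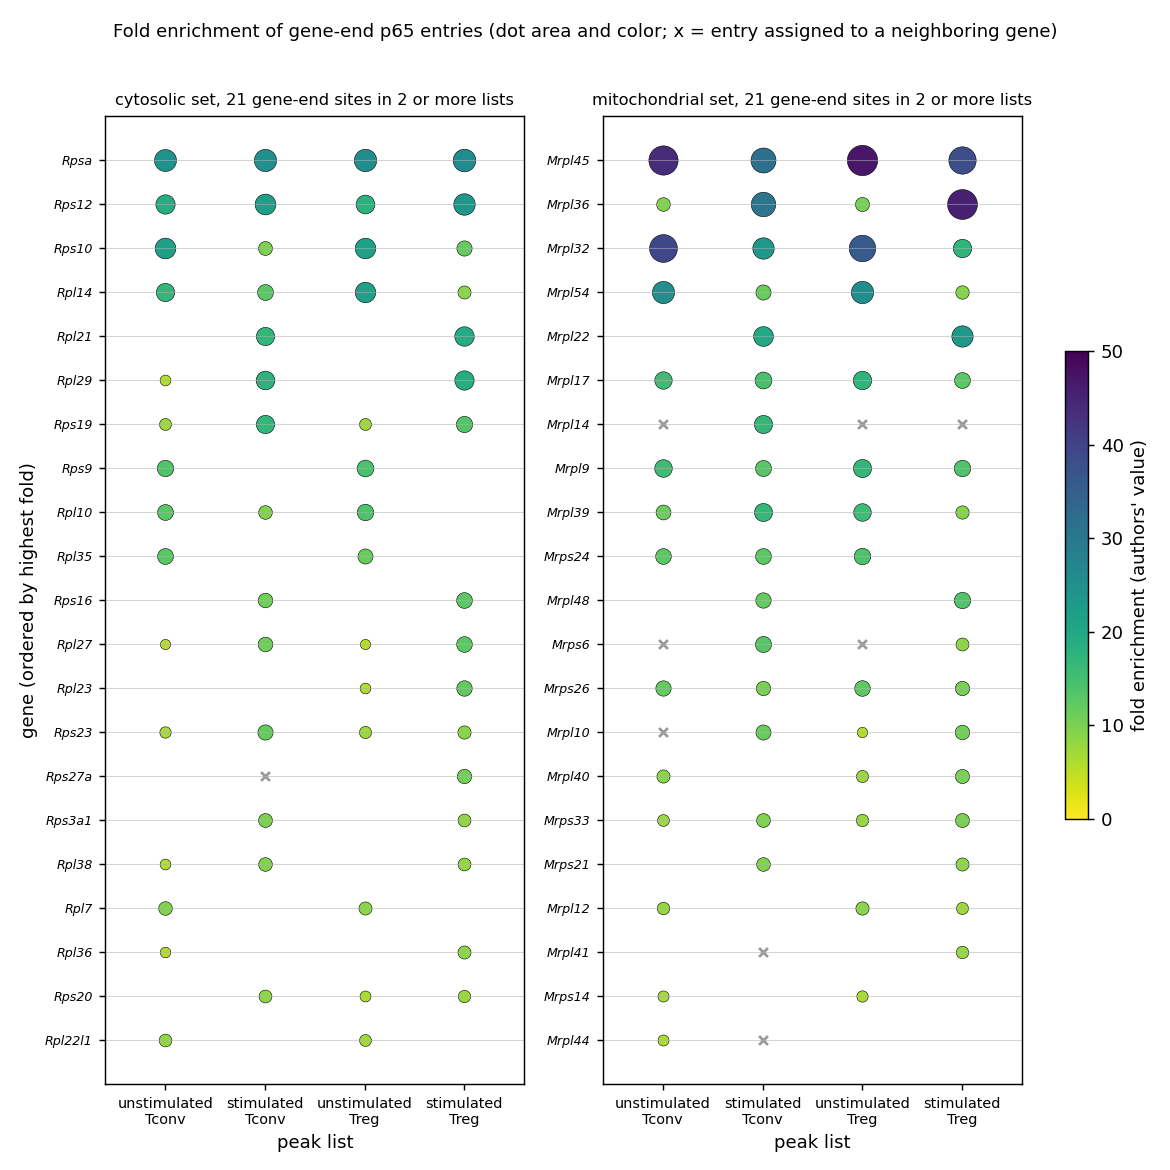
Fold enrichment (dot area and color) of each gene-end site with an entry in 2 or more lists, with cytosolic genes on the left and mitochondrial genes on the right, ordered by their highest fold. A cross marks an entry at the site whose nearest gene is a neighbour, and an empty cell means no entry. Rpsa and Rps12 keep similar dots across the lists, Mrpl32 and Mrpl54 have their larger dots in the unstimulated columns, and Mrpl36 in the stimulated ones.

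Gene-end entries in both stimulated lists and neither unstimulated list were found at 3 cytosolic genes, Rpl21, Rps16 and Rps3a1, and 4 mitochondrial genes, Mrpl22, Mrpl48, Mrps6 and Mrps21 (3.41% and 5.13% of each set, background 3.14%). At the Mrps6 site the unstimulated lists also held entries, assigned to Slc5a3, with folds of 6.32 and 6.09 in Tconv and 5.81 in Treg. Rpl21, of the large subunit, had folds of 17.1 in stimulated Tconv and 19.3 in stimulated Treg (chr5:146832384-146833544). Mrpl22, near the exit of the mitochondrial ribosome's tunnel, had 19.9 and 23.2 (chr11:58179545-58180453). Its summit lay 280 to 291 bp from the far end of the gene, and this was the single gene-end site of known strand that was not at a start. Rpl29 had a weak entry in unstimulated Tconv with a fold of 5.91, none in unstimulated Treg, and 17.9 and 19.1 in the stimulated lists of Tconv and Treg.

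Gene-end entries in the 2 unstimulated lists, with none after stimulation, were found at 4 cytosolic genes, Rps9, Rpl35, Rpl7 and Rpl22l1, and at 1 mitochondrial gene, Mrps14 (4.55% and 1.28%, background 1.55%). Rps9, a small-subunit protein near the messenger RNA entry site, had folds of 13.8 in unstimulated Tconv and 14.4 in unstimulated Treg. Rpl35 had 12.9 and 11.6, Rpl7 9.48 and 8.73, Rpl22l1 8.27 and 7.22, and Mrps14 6.26 and 6.54. The −log10 p of Rps9 was 70.0 in Tconv and 74.1 in Treg, and that of Rpl35 56.8 and 53.1, above the lowest values of both stimulated lists. Rpl7, at 39.4 and 37.2, stood at the Tconv limit of 38.1, and Rpl22l1 and Mrps14 stood below it at 30.4 and 22.6 in Tconv. An entry of equal strength would therefore not have been listed in stimulated Tconv for these last 2 genes. Rpl19, of the large subunit, had the same pattern at a start listed inside its gene body, with 13.7 in Tconv and 12.1 in Treg.

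Gene-end entries in stimulated Treg and in no other list were found at 10 cytosolic and 7 mitochondrial genes (11.4% and 8.97%, background 5.1%). The cytosolic genes include Rpl10a, Rpl30, Rpl34, Rps3, Rps14, Rps26, Rps27a and Rps19bp1, and the mitochondrial genes are Mrpl15, Mrpl35, Mrpl41, Mrpl52, Mrpl55, Mrps16 and Mrps30. At Rps27a and Mrpl41 stimulated Tconv held an overlapping entry nearest to the neighbouring gene (Clhc1 and Pnpla7). The other 15 sites had folds of up to 10.7 (median 8.69), none ranked better than 6424 of 13078, and 9 of them had a −log10 p under the lowest value of the stimulated Tconv list. Rps3, a ribosomal protein that is also known as a partner of p65 in NF-kB complexes, had a fold of 7.46 in stimulated Treg and no entry in the other lists. Rps26 had 8.69 and Mrpl52 10.7.

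Among the 23 sites away from gene ends, 9 lay inside a gene body and 14 outside. The highest cytosolic fold in any list was 42.5 kb from Rpl11, a large-subunit protein that binds Mdm2 when ribosome assembly fails. This site (chr4:136095192-136096329) had folds of 22.3 in stimulated Tconv and 36.9 in stimulated Treg and no unstimulated entry. The next nearest protein-coding gene, Id3, was 47.9 kb away, so the nearest-gene rule decided between similar distances. Another Rpl11 site at 28.5 kb had 12.5 in stimulated Tconv, 6.31 in unstimulated Treg and 20.9 in stimulated Treg.

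Mrpl39 combined both kinds of site. At its start it had folds of 11.3 in unstimulated Tconv, 16.7 in stimulated Tconv, 15.8 in unstimulated Treg and 9.05 in stimulated Treg. At 15.1 kb and 5.12 kb beyond its body, 2 sites were in the stimulated lists alone, with 14.96 and 11.6 in Tconv and 35.6 and 31.1 in Treg (chr16:84702613-84704603 and chr16:84712605-84715058). The next protein-coding gene from these sites, Jam2, was over 60 kb away (71.0 and 61.0 kb). Non-coding genes nearer to these sites were not looked for, so the gene that the binding concerns is not known. Mrpl33 had a comparable site 17.1 kb outside, with 13.8 in stimulated Tconv and 20.8 in stimulated Treg. Rpl3, whose product reaches the peptidyl transferase centre, had a site 16.4 kb outside in stimulated Treg alone with a fold of 13.5.

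Of the 23 sites, 6 lay within 1 kb of a start that RefSeq lists inside the gene body, at Rps2, Rpl22, Rpl19, Rps27l, Mrpl24 and Mrpl48. The same share over all entries away from gene ends was not computed. Rps2 had folds of 8.91 in unstimulated Tconv, 10.7 in stimulated Tconv, 12.8 in unstimulated Treg and 13.7 in stimulated Treg, with summits 51 to 75 bp from that start. Rpl22, known for its role in T cell development, had 5.97, 9.82, 5.72 and 8.90 in the same order. Its paralog Rpl22l1 had entries in the unstimulated lists alone. Counting these 6 sites as gene ends, a choice made after the data were seen, gave 28.6% of gene-end and 87.5% of other entries without an unstimulated counterpart in Tconv, and 55.6% and 87.5% in Treg.

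Where the strand of the gene was known, gene-end entries stood at starts. Strand and starts were matched for 137 of 166 members, and 46 of 59 gene-end sites lay within 1 kb of a start (one listed by RefSeq or the 5′ edge of the gene body), 1 at a far end and 12 in genes without a listed strand. The strongest summit of these 46 sites had a median position 29 bp upstream of the start (−29 bp), 44 were within 250 bp of it, 30 were upstream and 16 downstream. The medians were −35 bp for 22 cytosolic and −19.5 bp for 24 mitochondrial sites. The same placement over all gene-end entries of the lists was not computed, so it cannot be read as a trait of the members.

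**Figure D4:**
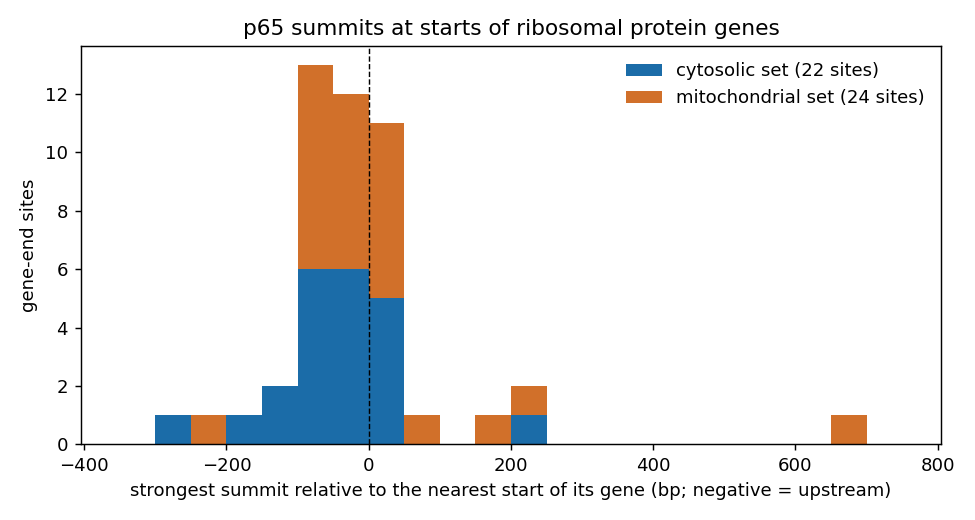
Number of gene-end sites (vertical axis) by the distance of the strongest summit from the nearest start of its gene (horizontal axis, bp, negative upstream), for 22 cytosolic and 24 mitochondrial sites. Of the 46 sites, 44 lie within 250 bp of the start, at a median of −29 bp.

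The sets differed in their neighbours. At 12 of 27 mitochondrial gene-end sites the end of another protein-coding gene lay within 1 kb of the summit (44.4%, 27.6% to 62.7%), against 2 of 32 cytosolic sites (6.25%, 1.73% to 20.1%). The difference was 38.2 points (Newcombe interval 16.3 to 57.0). Among all gene-end entries of the 4 lists the share was 17.1% to 18.6%. The genes themselves differ in the same direction, since 56.4% of mitochondrial and 35.2% of cytosolic members have an end within 1 kb of another gene's end, beside 24.8% of all genes. This gene share is measured from the ends of a gene and the site share from a summit, so their sizes cannot be compared. The mitochondrial pairs were Mrpl10 with Lrrc46, Mrpl12 with Hgs, Mrpl14 with Tmem63b, Mrpl32 with Psma2, Mrpl36 with Ndufs6, Mrpl40 with Hira, Mrpl41 with Pnpla7, Mrpl44 with Wdfy1, Mrpl48 with Rab6a, Mrpl54 with Apba3, Mrps6 with Slc5a3 and Mrps16 with Cfap70. The cytosolic pairs were Rpl36 with Lonp1 and Rps27a with Clhc1. At such sites the lists cannot tell which gene the binding concerns.

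Conversely, 7 mitochondrial and 5 cytosolic members without a gene-end entry of their own had one within 1 kb that was nearer to a neighbour. The same share over all protein-coding genes was not computed, so these counts are not a trait of the members. Mrps18b, next to Ppp1r10, had such an entry in all 4 lists, with folds of 15.1 in unstimulated Tconv, 11.7 in stimulated Tconv, 17.2 in unstimulated Treg and 13.6 in stimulated Treg. Mrpl30, next to Mitd1, had 7.61, 14.4, 10.5 and 16.4 in the same order. These members count as unbound by the nearest-gene rule.

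By the subunit named in the symbol, gene-end entries in at least 1 list were at 17 of 35 small-subunit (48.6%) and 15 of 53 large-subunit cytosolic genes (28.3%), a difference of 20.3 points (−0.19 to 39.2). In the mitochondrial set 8 of 29 small-subunit (27.6%) and 19 of 49 large-subunit genes (38.8%) had one, a difference of −11.2 points (−30.2 to 10.7). The 29 include Mrps30 and Mrps18a, whose products are found in the large subunit despite their symbols, and Mrps30 is among the 8. Both intervals contain 0. Cytosolic genes that host a small nucleolar RNA gene had an entry at 11 of 29 (37.9%), and those without one at 21 of 59 (35.6%).

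Within a list, gene-end member entries had median folds of 10.4 in unstimulated Tconv, 12.9 in stimulated Tconv, 12.0 in unstimulated Treg and 9.38 in stimulated Treg. All gene-end entries had medians of 8.75, 12.2, 8.66 and 10.4. Member entries away from gene ends had 9.73, 11.8, 6.31 and 11.7. Within the 10% of each list with the highest −log10 p there were 5 of 30 gene-end member entries in unstimulated Tconv, 4 of 31 in stimulated Tconv, 4 of 28 in unstimulated Treg and 2 of 49 in stimulated Treg. Of all gene-end entries, 264 of 2230, 163 of 2463, 286 of 2385 and 192 of 4264 were in that part of the same lists.

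The 250 bases upstream of the starts were searched on both strands for a kB consensus (the 10-base NF-kB site), GGANNTTCC, CCGGAAG (ETS), GGGCGG (SP1), AAGATGGC (YY1) and GCGCATGC (NRF1). The kB consensus and GGANNTTCC can overlap, and so can GCGCATGC with its own reverse strand. GGANNTTCC was in 6 of 68 cytosolic promoters (8.82%, 4.11% to 17.9%) and 2 of 69 mitochondrial ones (2.90%, 0.80% to 9.97%), beside 4.21% of 17492 genes with a promoter. The kB consensus was in 1 cytosolic and 2 mitochondrial genes' promoters (1.47% and 2.90%), beside 4.82%.

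CCGGAAG was in 18 of 68 cytosolic (26.5%, 17.4% to 38.0%) and 18 of 69 mitochondrial promoters (26.1%, 17.2% to 37.5%), beside 10.2% of all. GCGCATGC was in 0 of 68 cytosolic (up to 5.35%) and 8 of 69 mitochondrial promoters (11.6%, 5.99% to 21.2%), beside 3.32%. GGGCGG was near the share of all promoters in both sets, at 47.1% and 47.8% beside 45.8%. AAGATGGC was in 4.41% and 5.80%, beside 1.77%.

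Split by binding, GGANNTTCC was in 4 of 26 cytosolic genes with an entry within 1 kb of a listed start (15.4%, 6.15% to 33.5%) and in 2 of 42 without one (4.76%, 1.32% to 15.8%). The 4 genes were Rpsa, Rps12, Rps2 and Rpl22, each with an entry in all 4 lists. In the mitochondrial set it was in 2 of 24 (Mrpl39 and Mrps21) and in 0 of 45. GCGCATGC was in 5 of 24 mitochondrial genes with such an entry (20.8%, 9.24% to 40.5%), namely Mrpl9, Mrpl10, Mrpl17, Mrpl32 and Mrpl39, and in 3 of 45 without (6.67%, 2.29% to 17.9%). In Mrpl32 it occurred at −87, −85, −66 and −22 relative to the start, with the strongest summit at −76. In Rpsa, GGANNTTCC began at −240 with the strongest summit at −182, and in Rps12 at −103 with the summit at −136. All of these intervals overlap between bound and unbound genes.

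Some members with known roles had no entry in any list. They include Rps6, the substrate of S6 kinases, Rpl5, the Mdm2-binding partner of Rpl11, Rpl13a, known for translational silencing after interferon, and Mrps12, of the decoding site. Mrpl12, known for binding mitochondrial RNA polymerase, had folds of 7.94 in unstimulated Tconv, 8.96 in unstimulated Treg and 7.39 in stimulated Treg. Stimulated Tconv held no entry for it. Rps27l had 9.05 in stimulated Treg alone.

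Related genes outside the rule were also counted, by the presence of an entry in at least 1 list (background 29.1%). Among other components of the cytosolic ribosome, 2 of 6 had one, among them Rack1 (10.9 in stimulated Tconv and 18.8 in stimulated Treg). Of 5 mitochondrial ribosome components, Dap3 had one, with folds of 5.35 in unstimulated Tconv, 12.4 in stimulated Tconv, 6.80 in unstimulated Treg and 16.6 in stimulated Treg. Ribosome biogenesis genes had entries at 18 of 30, cytosolic translation factors at 17 of 22, and mitochondrial translation and transcription genes at 15 of 26, shares of 60.0%, 77.3% and 57.7%. All 16 NF-kB reference genes had entries in every list, led by Nfkbia, the gene for IkB-alpha, with a fold of 102 in stimulated Treg.

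In ribosome biogenesis, Ncl (nucleolin) had folds of 7.41 in unstimulated Tconv, 20.7 in stimulated Tconv, 7.42 in unstimulated Treg and 31.2 in stimulated Treg. Nop56, a core protein of box C/D ribonucleoproteins, had entries in the unstimulated lists alone, at 15.7 in Tconv and 21.0 in Treg. Among translation factors, Eif3a, of the initiation factor that binds the small subunit, had 39.1 and 33.6 in the unstimulated lists of Tconv and Treg and 18.0 and 15.7 in the stimulated ones. Eef1g, of the elongation factor complex, had 7.02 and 10.6 unstimulated and 18.9 and 27.7 stimulated. Vars2, the mitochondrial valyl-tRNA synthetase, had 40.6 and 40.7 unstimulated and 24.3 and 14.2 stimulated, and Tufm, the mitochondrial elongation factor Tu, had entries after stimulation alone (17.4 and 17.1). The higher value thus stood in the unstimulated lists for some genes of each kind and in the stimulated lists for others.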

How the data were processed

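There were 8 p65 ChIP-seq libraries, 2 per group. The 2 input libraries, a mix of all cells, were not analysed here. Per the submitters' processing notes, MACS2 2.1.1.20160309, BWA 0.7.15-r1140 and Trim Galore 0.4.1 were used with mm10. By their names, the deposited lists come from pooled replicates after removal of blacklisted regions and a conservative IDR filter. The treatment of input, and of reads that map to several places such as processed pseudogenes, is not stated in the sources used here. Fold enrichment is the authors' ratio. The −log10 p is the authors' value, and the deposited score is that value times 10. Depth per library is unknown.

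Summits were assigned to RefSeq GRCm38.p6 genes with Python 3.11.15 and pandas 2.3.3, with intervals from statsmodels 0.14.6, and the assignment was tested on simulated data. Members, lists and alternatives were chosen with earlier results of these data known. Genes named were, per set, the 8 with the highest fold, up to 5 per direction of each comparison, 11 genes of known role and up to 3 per related list. Other genes, such as Mrpl9, Mrps18b, Mrpl30, Rps2, Rps23 and Rpl27, and those that make up a count, were named after their values were seen. The alternatives were other gene-end distances, nearest-gene limits, overlaps and list cut-offs. Some genes that enter the counts are not reported here by name.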

Additional observations from a re-analysis of the deposited data

Results flagged for a closer look

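Rpl36, a large-subunit gene next to Lonp1, was the member whose gene-end entry was lost with stimulation in one cell type and gained in the other. It had a fold of 5.72 in unstimulated Tconv, no entry in stimulated Tconv or unstimulated Treg, and a fold of 8.72 in stimulated Treg. The difference between the cell types was not tested, since each group has 1 list. The −log10 p was 15.8 in unstimulated Tconv and 34.4 in stimulated Treg, both under the lowest value of the stimulated Tconv list, 38.1.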

How the results depend on the processing

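Of 316 values recomputed under 12 alternatives, 274 stayed within the interval of the reported value. All 42 that moved came from the 3 alternatives that shorten the lists, which hold fewer entries by construction. Under these 3, the share over all genes was computed for gene-end entries alone. For genes with an entry and entries without a counterpart, the moves cannot be set apart from those of the whole lists. The mitochondrial minus cytosolic share had an interval containing 0 in all 36 recomputed values (−3.64 to 8.74 points). Gene-end distances of 500 bp and 2 kb, a 10 kb limit, every gene within 1 kb, merged regions, 50% reciprocal overlap, summits within 200 bp, leaving out paralogs and, added after seeing the data, listed starts as gene ends moved none. The paralogs left out did not include Rpl31-ps12, Rpl34-ps1, Rpl32l, Rpl37rt, Rps27rt or Rps23rg1.

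With 1 cut-off for all lists, the highest of their lowest −log10 p values (38.1), genes with an entry came to 10.2% (cytosolic) and 11.5% (mitochondrial) in unstimulated Tconv, 11.4% and 11.5% in unstimulated Treg, and 22.7% and 25.6% in stimulated Treg. Genes with a gene-end entry came to 9.09% of the cytosolic set in each unstimulated list, and to 17.0% (cytosolic) and 19.2% (mitochondrial) in stimulated Treg. Over all genes the shares were 4.59% in unstimulated Tconv, 5.11% in unstimulated Treg and 11.9% in stimulated Treg. Entries without a counterpart came to 48.4% at gene ends and 91.7% elsewhere in stimulated Tconv, and 26.7% at gene ends for stimulated Treg against stimulated Tconv. Median gene-end folds were 15.5 in unstimulated Tconv and 12.0 in stimulated Treg.

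With the upper 50% of each list, genes with an entry came to 12.5% (cytosolic) in unstimulated Tconv, 7.95% and 12.8% (cytosolic and mitochondrial) in stimulated Tconv, and 12.5% and 15.4% in stimulated Treg. Genes with a gene-end entry came to 10.2% (cytosolic) in unstimulated Tconv, 5.68% and 11.5% in stimulated Tconv, and 9.09% and 11.5% in stimulated Treg. Over all genes the shares were 5.41%, 4.72% and 7.32% in the same order of lists. Median gene-end folds were 17.5 in stimulated Tconv and 14.0 in stimulated Treg, with 20.1 elsewhere in the latter, and 60.0% of its other entries lacked a stimulated Tconv counterpart.

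With 3132 entries in each list, genes with an entry came to 7.95% and 12.8% (cytosolic and mitochondrial) in stimulated Tconv and 5.68% and 7.69% in stimulated Treg. Genes with a gene-end entry came to 5.68% and 11.5% in stimulated Tconv and 4.55% and 5.13% in stimulated Treg. Over all genes the shares were 4.51% and 2.69% in these lists. Median gene-end folds were 17.5 and 23.4 in stimulated Tconv and Treg, with 26.0 elsewhere in Treg. Of the stimulated Treg gene-end entries, 37.5% lacked an unstimulated counterpart and 0% a stimulated Tconv one. These shares rest on few entries, since gene-end entries remained at 4 cytosolic and 4 mitochondrial genes.

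No paired analysis was possible because each list pools both libraries of its group and its columns carry no replicate number. Leaving out a replicate was not possible for the same reason. The depth of the libraries is unknown and limits every absence of an entry.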
